A study of Homo sapiens with 34 samples.

Results

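Transcripts of 9 genes of the NODAL pathway were followed through cardiac differentiation of H1 cells, an established human embryonic stem cell line. The genes were taken by symbol from a table of RNA-seq read counts, in which all 9 were found among 23189 gene symbols. They encode the ligands NODAL and GDF3, the co-receptor TDGF1 (also called Cripto), the activin receptors ACVR2A and ACVR2B, the transcription factor FOXH1 and the secreted inhibitors LEFTY1, LEFTY2 and CER1. Where a gene had more than 1 RefSeq row in the table, the row with the largest total was used. In GRCh37, the build the reads were mapped to, GENCODE places NODAL at chr10:72191692-72207707, CER1 at chr9:14719722-14722731 and GDF3 at chr12:7842380-7848371, all on the minus strand. TDGF1 lies at chr3:46616024-46623947, ACVR2A at chr2:148602086-148688395 and ACVR2B at chr3:38495381-38534633, all on the plus strand.

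The study asked which genes were needed for differentiation toward cardiomyocytes, and lowered 3 candidate transcription factors in H1 cells with lentiviral shRNA. The 3 shRNA lines targeted NKX2-5, a cardiac homeodomain factor, ZEB2, a zinc finger repressor that binds SMAD proteins, or ZNF503, a zinc finger protein. NKX2-5 served the study as a positive control. The group called WT was also infected, with virus that was empty or that encoded an shRNA to GFP. Every group therefore carried a lentiviral vector, and each targeted line came from a single shRNA vector, the one that gave the best knockdown among several tested. Undifferentiated cells were grown in E8 medium, and all groups were differentiated in a form of it without FGF2, TGFβ or insulin. CHIR99021, an inhibitor of GSK3β that activates WNT signaling, was given first. IWP2, an inhibitor of WNT secretion, was given next, and insulin was supplied afterwards. In changes from day 0 to day 2, the loss of TGFβ and the other factors from the medium cannot be told apart from differentiation. RNA was collected at days 0, 2, 6 and 10. WT, ZEB2 shRNA and NKX2-5 shRNA cells were followed at all 4 days and ZNF503 shRNA cells at days 0, 2 and 6, with 2 libraries in each of 15 groups. At day 10 replicates 3 and 4 of WT and ZEB2 shRNA cells were used, because the values of replicates 1 and 2 did not follow the gene order of the table.

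NODAL is a secreted ligand of the TGFβ family that binds activin receptors together with Cripto and acts through SMAD2, SMAD3 and FOXH1. Its targets include NODAL itself and the genes for its own inhibitors LEFTY1 and LEFTY2. In human embryonic stem cells the pathway helps to maintain pluripotency, and during gastrulation it directs the formation of mesoderm and endoderm, after which NODAL is normally silenced in cardiac precursors. ZEB2 was first described as a SMAD-interacting protein that recognizes E-box sequences of the form CACCTG.

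The DNA just upstream of NODAL, CER1 and GDF3 is shown, 3 of the 6 members that rose in ZEB2 shRNA cells at day 6. They were picked because their windows hold letters of the kind recognized by FOXH1 or SMAD proteins. Each window covers 250 bases before the annotated start of transcription in RefSeq (build GRCh38.p14), all on the minus strand and written 5′ to 3′. Capitals mark matches, on either strand, to CAGAC (a SMAD binding element), AATNCACA (a FOXH1 core) or CACCTG (an E-box). The windows are chr10:70441682-70441931 for NODAL, chr9:14722734-14722983 for CER1 and chr12:7695776-7696025 for GDF3.
NODAL: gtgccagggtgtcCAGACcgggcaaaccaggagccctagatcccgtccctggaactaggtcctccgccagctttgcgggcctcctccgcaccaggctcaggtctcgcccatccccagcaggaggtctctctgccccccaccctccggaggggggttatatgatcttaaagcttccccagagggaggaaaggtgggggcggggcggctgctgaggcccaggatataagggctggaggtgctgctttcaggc
CER1: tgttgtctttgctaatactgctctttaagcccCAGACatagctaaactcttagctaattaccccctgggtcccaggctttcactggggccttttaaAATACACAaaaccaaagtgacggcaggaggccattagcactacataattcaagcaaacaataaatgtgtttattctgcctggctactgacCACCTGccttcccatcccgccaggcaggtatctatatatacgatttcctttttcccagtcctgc
GDF3: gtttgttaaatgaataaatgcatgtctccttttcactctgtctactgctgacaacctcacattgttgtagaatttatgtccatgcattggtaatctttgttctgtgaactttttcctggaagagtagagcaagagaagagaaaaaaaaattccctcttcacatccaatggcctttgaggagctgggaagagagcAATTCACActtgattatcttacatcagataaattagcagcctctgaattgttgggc
The NODAL window held 1 SMAD element. CER1 held 1 match to each of the 3 motifs, and GDF3 held 1 FOXH1 core. Each of the TDGF1 windows, listed in RefSeq under CRIPTO with 2 starts, held 1 E-box, and the ACVR2A and ACVR2B windows held no match. No window of LEFTY1, LEFTY2 or FOXH1 was read, so 6 of the 9 members are covered. Among 35116 promoter windows of the same length, 38.0% held CAGAC, 17.5% held CACCTG and 2.89% held AATNCACA. A match describes letters and not occupancy of the site.

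The 30 libraries held 9189943 to 90814577 counts, and those of day 10 were the shallowest, with at most 29549874. A count of 3 in a library corresponded to between 0.0330 and 0.326 counts-per-million (CPM). The summed level of 9 pluripotency markers was between 7217 and 7443 CPM in WT cells at day 0. That of 6 cardiomyocyte markers went from 2.64 to 3.18 CPM at day 2 to between 8743 and 11006 CPM at day 6. The targeted ZEB2 transcript was at 54.6 and 57.1 CPM in ZEB2 shRNA cells and at 96.8 and 94.1 CPM in WT cells at day 6, a fall of 0.77 on the log2 scale (SE 0.12, adjusted p = 0.00136). At day 2 its difference was -0.63 (SE 0.17, adjusted p = 0.185) and at day 10 it was -1.02 (SE 0.34, adjusted p = 0.0793), neither of which passed the test. By real-time PCR, another measure, the study reported a much stronger knockdown of ZEB2 than these counts show. NKX2-5 was lower in NKX2-5 shRNA cells at day 6 by a log2 difference of -6.30 (adjusted p = 9.6e-09), and ZNF503 in ZNF503 shRNA cells by -3.84 (adjusted p = 6.25e-07). At day 6, ZEB2 was also lower in NKX2-5 shRNA cells (-2.22, adjusted p = 4.69e-08) and in ZNF503 shRNA cells (-3.01, adjusted p = 8e-09) than in WT cells. The levels of the targeted genes at day 0 are not given here, nor those of NKX2-5 and ZNF503 at day 2. With real-time PCR the study saw ZEB2 and ZNF503 expression begin at day 2 and reported NKX2-5 expression at day 6. Whether differences at days 0 and 2 followed from loss of the targeted gene was not tested. All tests across genes were edgeR quasi-likelihood tests with Benjamini-Hochberg adjustment, and a gene is said to have risen or fallen where the adjusted p was under 0.05. The replicates are called biological without further detail, so the p-values measure the spread between these libraries. Groups of 2 libraries can lie wholly apart where no test passes. At day 10 this held for 7 of the 8 members tested in ZEB2 shRNA cells, where 0 passed by edgeR. The share of all genes that lie apart was not computed, so such statements are descriptions only. In bulk RNA, fewer cells of a type and less RNA per cell cannot be told apart.

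The course of the pathway without a targeted gene was read from WT cells. Levels per length divide by the length of the GENCODE transcript tagged MANE Select. Whether reads in introns were counted is not given in the sources used here, and if they were, the order of genes per length could differ. At day 0, TDGF1 was the most abundant of the 9 transcripts per length, at 263 ± 11.4 CPM per kb (SD, n = 2). NODAL, LEFTY1, GDF3 and ACVR2B followed at 47.4, 38.1, 35.4 and 30.6 CPM per kb, where LEFTY1 and GDF3 overlapped in their libraries and the other neighbours did not. FOXH1, LEFTY2 and ACVR2A were at 13.3, 9.16 and 6.68 CPM per kb, and CER1 was lowest at 3.36.

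**Figure D1:**
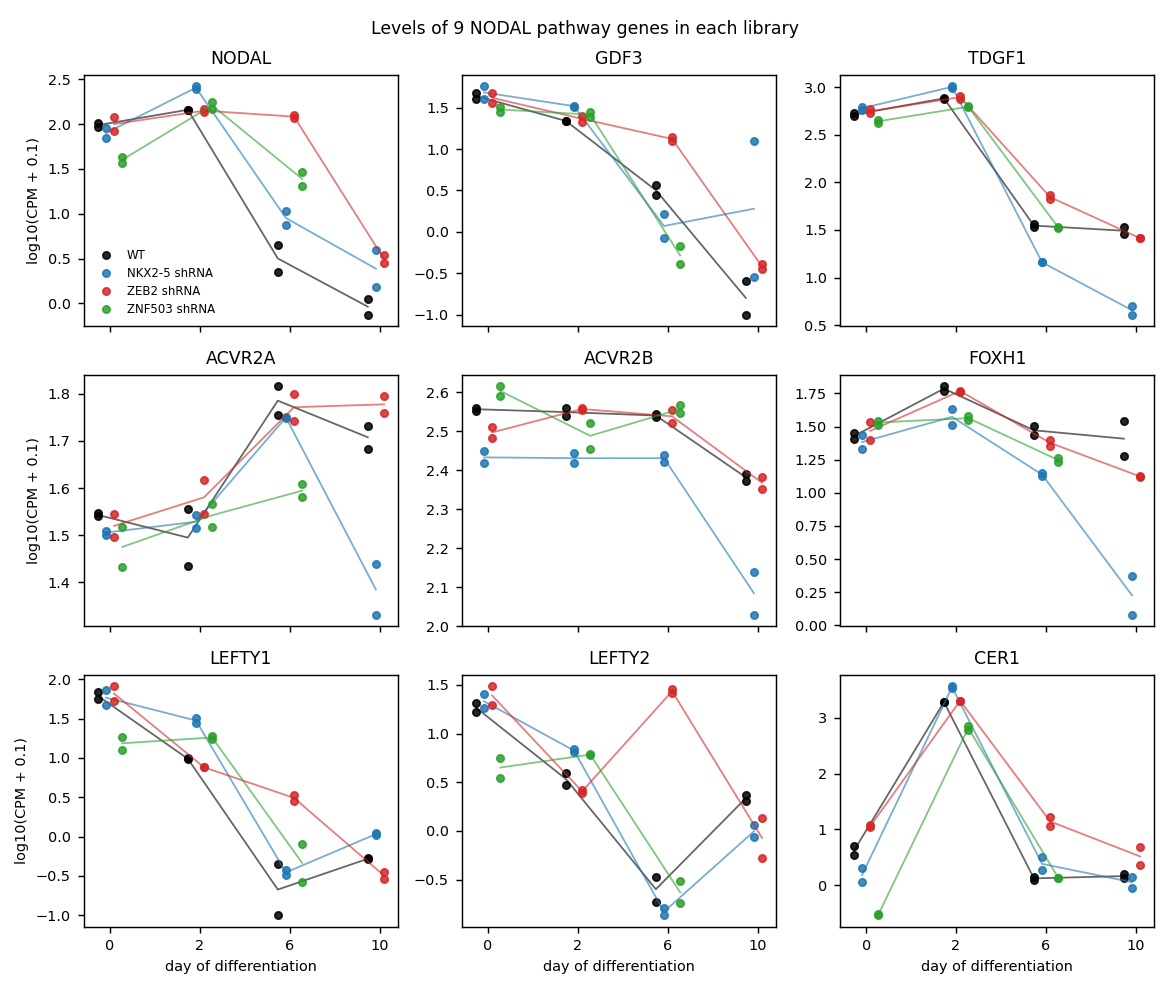
Levels of the 9 members in every library, in counts-per-million on a log axis, against day of differentiation; points are libraries and lines join group means of WT, NKX2-5, ZEB2 and ZNF503 shRNA cells. At day 6, NODAL stood at 117 and 126 CPM in ZEB2 shRNA cells and at 2.17 and 4.33 CPM in WT cells.

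CER1 encodes an extracellular antagonist that binds NODAL and BMP ligands and marks early mesendoderm. In WT cells it went from 3.42 and 4.87 CPM at day 0 to 1893 and 1920 CPM at day 2, and it was back at 1.17 and 1.30 CPM at day 6. The rise was 475-fold (log2 8.89, adjusted p = 2.34e-09) and made CER1 the most abundant member per length at day 2, with 1549 ± 15.5 CPM per kb against 389 ± 7.64 for TDGF1. In the same step TDGF1 rose by 0.61 and FOXH1 by 1.24 on the log2 scale, whereas LEFTY1 (-2.64), LEFTY2 (-2.44) and GDF3 (-0.96) fell. NODAL went from 102 and 93.0 CPM to 144.9 and 144.6 CPM (log2 0.61, adjusted p = 0.0222). Its call was lost on leaving out any 1 of the 4 libraries (adjusted p between 0.0858 and 0.154). In all, 7 of the 9 members changed between days 0 and 2, where 44.1% of all genes tested changed. In a single fit of all 15 groups the calls of NODAL (adjusted p = 0.0726) and GDF3 (adjusted p = 0.176) were lost.

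Between days 2 and 6 most members came down in WT cells. Of the 9 members 7 fell, where 23.9% of all genes tested fell, and 1 rose, where 25.9% did. NODAL dropped by 5.43 on the log2 scale to 2.17 and 4.33 CPM, and CER1 dropped by 10.59. LEFTY1 decreased by 6.22 to 0.35 and 0.00 CPM (8 counts and 0 counts), LEFTY2 by 4.17, TDGF1 by 4.46, GDF3 by 2.84 and FOXH1 by 1.06. Without WT replicate 2 of day 6 the decreases were larger for NODAL (-6.06) and LEFTY2 (-5.18) and smaller for LEFTY1 (-4.78), and without replicate 1, whose partner held no LEFTY1 read, the LEFTY1 estimate was -11.08. ACVR2A was the member that rose, by 0.93. At day 6 the receptor ACVR2B, at 29.5 CPM per kb, exceeded the co-receptor TDGF1 at 17.9, and NODAL was at 1.58 CPM per kb, sixth of the 9.

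From day 6 to day 10 in WT cells 4 members changed, where 57.5% of all genes tested did. NODAL dropped further by 1.88 (1.26 without WT replicate 2 of day 6) to 1.03 and 0.65 CPM. ACVR2B dropped by 0.50. LEFTY2 rose by 3.53 on the log2 scale, to 2.22 and 1.94 CPM, and by 4.53 without WT replicate 2 of day 6. GDF3 fell by 4.80 on the log2 scale, to 3 counts in 1 library and 0 in the other. From the summed counts its ratio of day 6 to day 10 was 28.9, with an exact 95% counting interval of 9.73 to 141, and without WT replicate 3 of day 10 only the library at 0 was left and the estimate was -9.43.

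The receptors varied least over the whole experiment. ACVR2A, which encodes a receptor that binds activin and NODAL, ranged from 21.3 to 65.4 CPM over the 30 libraries with a median of 35.5. Its paralog ACVR2B ranged from 107 to 413 CPM. By contrast CER1 spanned 0.19 to 3656 CPM and NODAL 0.65 to 267 CPM.

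The comparison of knockdown with WT cells asked at which day and in which line the members departed from this course. Over 3 lines and up to 4 days, 40 of 97 tests of a member passed (23.5% of all tests of a gene in these 11 comparisons did). CER1 passed in 7 of its 11 comparisons, NODAL, TDGF1 and FOXH1 in 5 each, and ACVR2A in 2. The comparisons of 1 day share their WT libraries, so that they are not independent of each other.

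**Figure D2:**
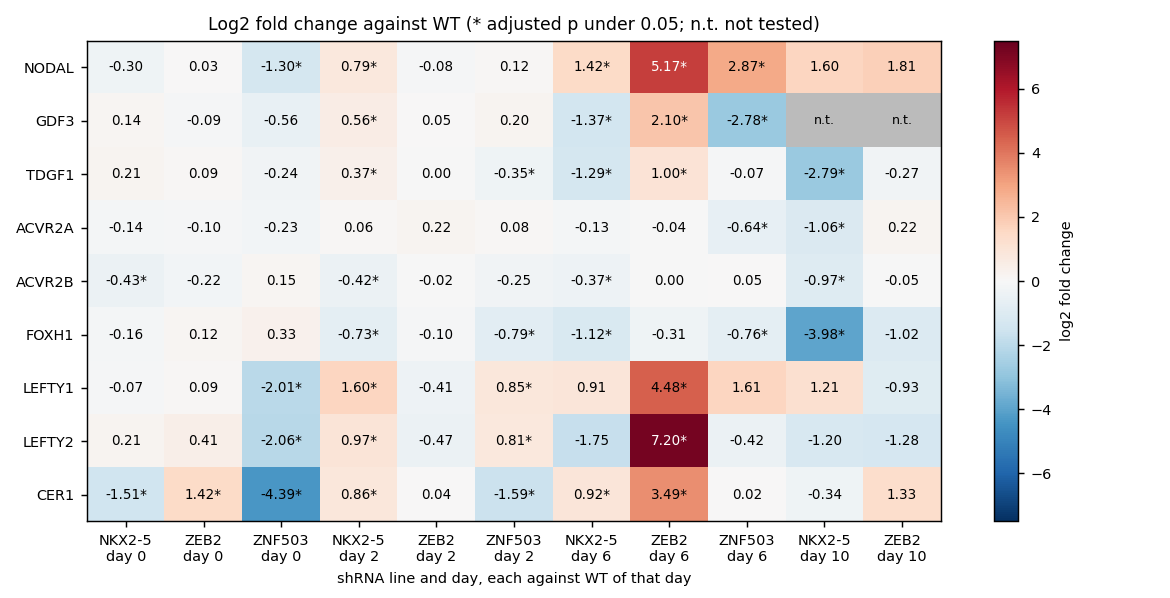
Log2 differences from WT for the 9 members (rows) in each shRNA line and day (columns), with the value printed in each tile and a mark where the adjusted p was under 0.05. In ZEB2 shRNA cells at day 6, the values were 5.17 for NODAL, 7.20 for LEFTY2 and 0.00 for ACVR2B.

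ZEB2 shRNA cells at day 6 had more transcripts of both ligands, the co-receptor and the 3 inhibitors than WT cells, while FOXH1 and the receptors did not pass the test. Of the 9 members 6 were higher and none was lower, where 5.67% of all genes tested were higher and 5.33% lower. The median log2 difference of the members was 2.10, and that of all genes tested was 0.01. By the study's own threshold for this day (8-fold and a false discovery rate of 1%), 4 members passed, where 0.462% of all genes passed.

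NODAL, the ligand, was at 117 and 126 CPM in ZEB2 shRNA cells and at 2.17 and 4.33 CPM in WT cells. Both ZEB2 shRNA libraries lay far above both WT libraries, and the difference was 36.1-fold (log2 5.17, SE 0.29, adjusted p = 1.18e-06). Per length NODAL was the most abundant member in these cells, at 59.0 ± 2.90 CPM per kb, followed by TDGF1 at 35.7 and ACVR2B at 29.3, whereas in WT cells it ranked sixth. GDF3, a second TGFβ family ligand that is expressed in pluripotent cells, was at 14.02 and 12.31 CPM against 3.55 and 2.67 CPM in WT. Its libraries did not overlap either, and it rose 4.30-fold (log2 2.10, SE 0.32, adjusted p = 0.00098). Without WT replicate 2 the NODAL difference was 5.80.

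TDGF1, the cell-surface protein that presents NODAL to its receptors, was at 73.6 and 66.1 CPM against 34.1 and 35.9 CPM. It rose 2.01-fold (log2 1.00, SE 0.12, adjusted p = 0.000224). FOXH1, the DNA-binding partner of SMAD2, was at 25.0 and 22.5 CPM against 31.9 and 27.3 CPM and did not pass (log2 -0.31, SE 0.15, adjusted p = 0.239). ACVR2A (log2 -0.04, SE 0.12, adjusted p = 0.893) and ACVR2B (log2 0.00, SE 0.10, adjusted p = 0.999) did not pass either.

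The LEFTY proteins are inhibitors that block NODAL and its co-receptor, and they are encoded by genes 25.2 kb apart on the minus strand, LEFTY1 at chr1:226073982-226099082 and LEFTY2 at chr1:226124298-226129083 (GRCh37). LEFTY2 stood at 28.7 and 25.7 CPM (1721 and 349 counts) in ZEB2 shRNA cells and at 0.09 and 0.24 CPM (2 and 10 counts) in WT cells. This was the largest difference of any member in any knockdown comparison, 147-fold (log2 7.20, SE 0.36, adjusted p = 5.1e-07), and 8.23 on the log2 scale without WT replicate 2. LEFTY1 stood at 3.30 and 2.73 CPM (198 and 37 counts) against 0.35 and 0.00 CPM (8 and 0 counts), a 22.2-fold difference (log2 4.48, SE 0.85, adjusted p = 0.00446). The LEFTY1 call was lost without ZEB2 shRNA replicate 1 (log2 4.29, adjusted p = 0.0594), and its size depended on the WT library left in the test (9.70 without replicate 1 and 3.12 without replicate 2).

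CER1, the third inhibitor, was at 11.3 and 16.9 CPM against 1.17 and 1.30 CPM. It rose 11.3-fold (log2 3.49, SE 0.33, adjusted p = 3.17e-05) but stayed far below its day 2 peak of 2020 and 2016 CPM in the same line. Leaving out single libraries or changing the test kept the differences of NODAL, LEFTY2, TDGF1, GDF3 and CER1 past the threshold (11 alternatives each).

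The balance between the 2 LEFTY genes also moved. At day 0 LEFTY2 supplied between 21.4% and 27.8% of the reads that fell on either gene over all 8 libraries, and at day 2 between 17.5% and 27.8%. At day 6 it supplied 89.7% (exact 95% binomial interval 88.2% to 91.0%) and 90.4% (87.0% to 93.2%) in ZEB2 shRNA cells. The 2 WT libraries of that day held only 10 reads each, so their shares of 20% and 100% are of little use. At day 10 the shares were 84.3% and 81.8% in WT, 87.2% and 62.5% in ZEB2 shRNA and 43.2% and 52.4% in NKX2-5 shRNA cells. Read length is not given in the sources used here, and stretches of 50 bases were assumed in its place. Of the 50-base stretches of the LEFTY1 transcript 31.3% also occur in LEFTY2, and 25.0% of those of LEFTY2 occur in LEFTY1 (54.7% and 29.6% in any other annotated gene), so reads can be assigned to the wrong copy. For TDGF1, 38.1% of stretches also occur in the pseudogene TDGF1P3. The counts of these 3 members are uncertain to an extent that depends on the true read length, and intervals cover counting error only.

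**Figure D3:**
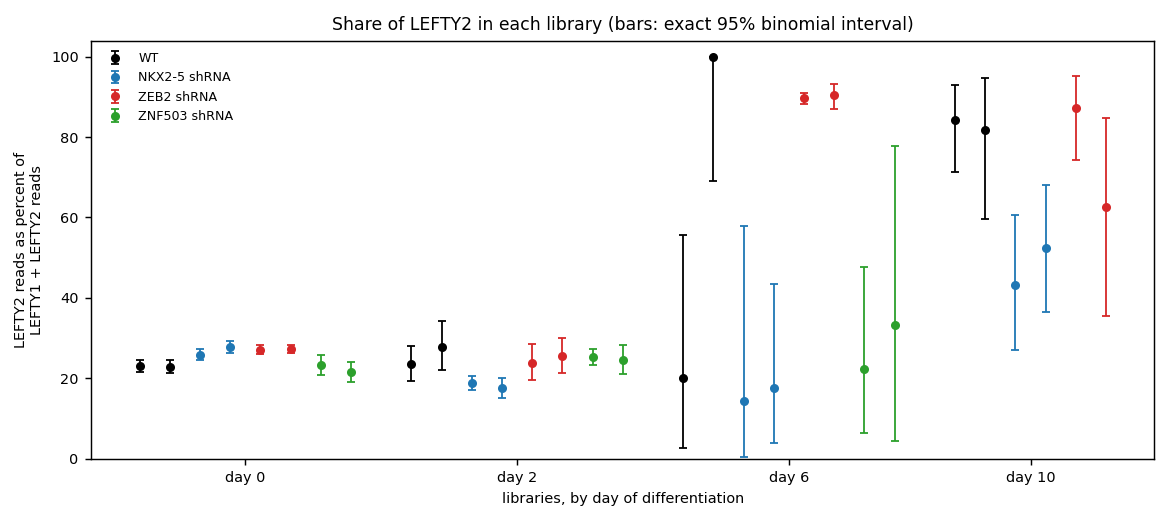
Share of reads on LEFTY1 or LEFTY2 that fell on LEFTY2, in percent, for every library by day and line; points are libraries and bars are exact 95% binomial intervals. ZEB2 shRNA cells at day 6 were at 89.7% and 90.4%, and all libraries of days 0 and 2 were at or below 27.8%.

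The difference arose between days 2 and 6. At day 2, no member differed between ZEB2 shRNA and WT cells by edgeR, where 0.490% of all genes tested did. Of the 9 tested, 1 had an unadjusted p under 0.05, and DESeq2, the exact test of edgeR and a single fit of all groups each called 0. From day 2 to day 6 NODAL in ZEB2 shRNA cells went from 146 and 137 CPM to 117 and 126 CPM, which did not pass the test (log2 -0.23), and LEFTY2 rose by 3.46 on the log2 scale. LEFTY1 (-1.28), TDGF1 (-3.50), CER1 (-7.23), FOXH1 (-1.31) and GDF3 (-0.81) still fell in these cells, though the GDF3 call was lost in a single fit of all groups (adjusted p = 0.292). ACVR2A rose by 0.63. The change from day 2 to day 6 differed from that of WT cells for 6 members, all in the direction of higher values, where 5.89% of all genes tested differed in either direction.

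The increase was also tested against the other knockdown lines of day 6. ZEB2 shRNA cells exceeded NKX2-5 shRNA cells in 8 of the 9 members (23.1% of all genes tested) and ZNF503 shRNA cells in 8 of the 9 (25.6% of all genes tested). NODAL was higher by 3.75 and 2.31 on the log2 scale, TDGF1 by 2.30 and 1.07, GDF3 by 3.47 and 4.88, and CER1 by 2.58 and 3.47. LEFTY2 was at 1 and 3 counts in NKX2-5 shRNA cells and at 4 and 2 counts in ZNF503 shRNA cells, and was higher in ZEB2 shRNA cells by 8.95 and 7.62. LEFTY1 was higher by 3.56 and 2.87. Against ZNF503 shRNA cells the LEFTY1 call was lost without ZEB2 shRNA replicate 1 (adjusted p = 0.0667) or ZNF503 shRNA replicate 2 (2.11, adjusted p = 0.0779), and without ZNF503 shRNA replicate 1 the values were 4.22 for LEFTY1 and 8.34 for LEFTY2. Without NKX2-5 shRNA replicate 2 the GDF3 difference from that line was 4.17. The smaller differences of FOXH1 (0.82 and 0.45), ACVR2B (0.37, from NKX2-5 shRNA cells) and ACVR2A (0.60, from ZNF503 shRNA cells) completed both counts. The calls of ACVR2B and of FOXH1 against ZNF503 shRNA cells were lost on leaving out single libraries, with adjusted p up to 0.107 and 0.1497.

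Other genes of the NODAL route were counted in the same comparison. Of 23 further ligands, proteases, receptors, SMADs and inhibitors of the pathway, 21 could be tested in ZEB2 shRNA cells at day 6, where 4 were higher and 0 lower with a median log2 difference of 0.14. PMEPA1, a SMAD-induced feedback inhibitor, was highest at 13.1 and 13.9 CPM against 2.77 and 4.26 CPM (log2 1.92, adjusted p = 0.000423). FST, the activin antagonist follistatin, was at 179 and 204 CPM against 49.8 and 66.0 CPM (log2 1.73, adjusted p = 1.66e-05). The protease PCSK6 (0.96) and the inhibitory SMAD7 (0.46) were the other two that rose, and INHBA, a subunit of activin, had the lowest value (-0.75, adjusted p = 0.104).

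Of 11 genes that commonly respond to NODAL or mark mesendoderm, 4 were higher and 0 lower (median 0.49). EOMES, a T-box factor of mesendoderm, was at 183 and 166 CPM in ZEB2 shRNA cells and at 11.0 and 11.1 CPM in WT cells, with no overlap and a log2 difference of 3.98 (SE 0.20, adjusted p = 5.1e-07). At day 2 it had been at 591 and 606 CPM in ZEB2 shRNA cells and 563 and 606 CPM in WT cells. SOX17 (1.25), LHX1 (0.76) and CXCR4 (0.67) also rose, and FGF8 had the smallest difference (0.01, adjusted p = 0.989).

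**Figure D4:**
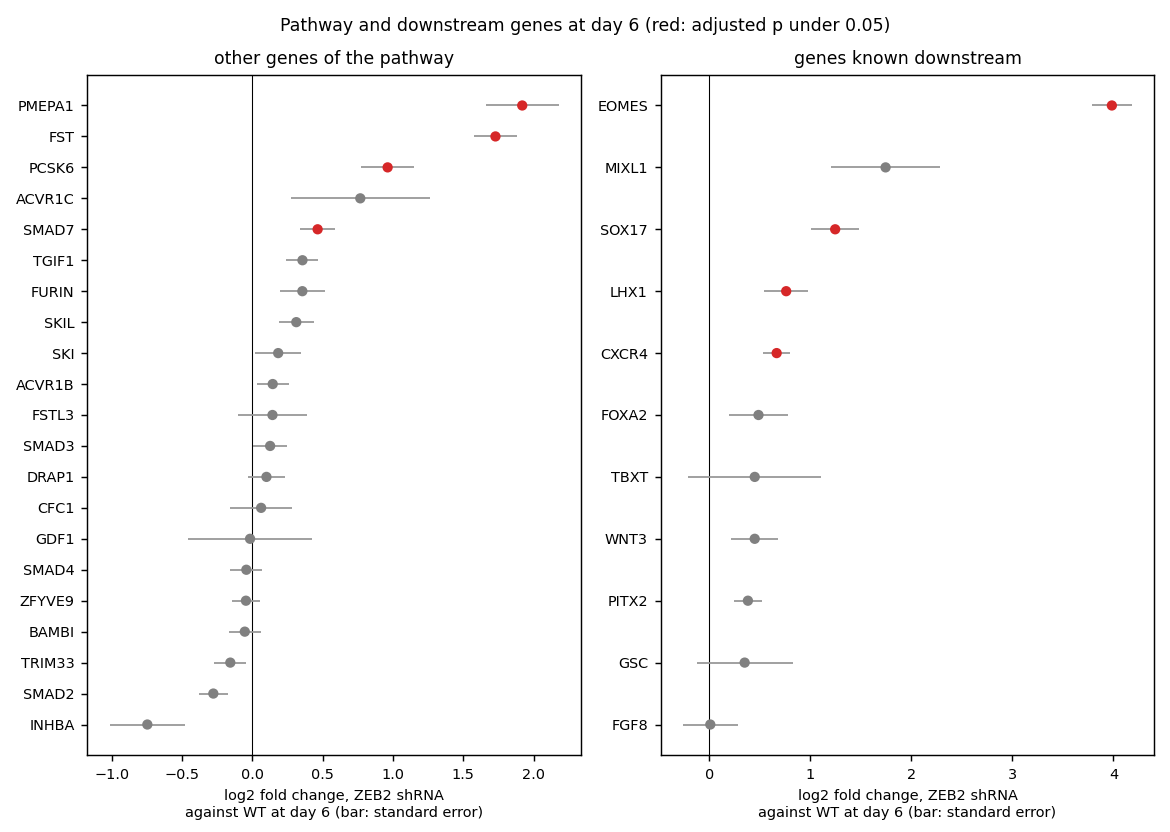
Log2 differences between ZEB2 shRNA and WT cells at day 6 for 21 other genes of the route (left) and 11 downstream genes (right). Bars are 1 SE. Red points passed the test at an adjusted p under 0.05 and grey points did not. Among the genes shown, EOMES had the largest value, 3.98.

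Markers of other cells moved in the same libraries. SOX17 and FOXA2 are among both the endoderm markers and the downstream genes, so counts from these lists share genes at every day. The summed level of the 6 cardiomyocyte markers was 4930 to 5342 CPM in ZEB2 shRNA cells at day 6 and 8743 to 11006 CPM in WT cells, and 4 of 6 were lower. Of 9 pluripotency markers, 1 was higher (L1TD1, at 429 and 473 against 98.3 and 97.7 CPM) and 1 lower (SOX2). In sum the 9 were at 1721 to 1866 CPM in ZEB2 shRNA cells and at 1385 to 1431 CPM in WT cells. Of 5 trophoblast and amnion markers tested 3 were higher, with a summed level of 521 to 569 CPM against 266 to 293 CPM. That list held GATA3, TFAP2A, KRT7, CGA, ISL1 and GABRP. The study counts ISL1 among cardiogenic factors and holds that GATA3 is likely also active in the cardiac lineage. The list therefore does not single out trophoblast or amnion cells, at this day or at others. Of 6 endoderm markers 1 was higher and 1 lower (180 to 227 CPM against 168 to 346 CPM), of 3 neural markers 1 was higher, and of 4 blood and endothelial markers 0 passed (edgeR). The part of these cells in the NODAL result was not tested.

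By day 10 the levels in ZEB2 shRNA cells had come down. NODAL was at 3.37 and 2.73 CPM against 1.03 and 0.65 CPM in WT cells (log2 1.81, adjusted p = 0.0834), and LEFTY2 was at 1.27 and 0.43 CPM against 2.22 and 1.94 CPM (log2 -1.28, adjusted p = 0.194). Neither pair of groups overlapped. FOXH1 was at 13.4 and 13.0 CPM against 18.9 and 34.5 CPM (-1.02, adjusted p = 0.12), and TDGF1 at 25.8 and 25.7 CPM against 28.4 and 33.7 CPM. By edgeR none of the 8 members tested passed, where 18.2% of all genes tested did. Of these 8, 3 had an unadjusted p under 0.05, DESeq2 called 0, the exact test of edgeR called 1, and a single fit of all groups called 5. In the same libraries 5 of 6 endoderm markers and 5 of 6 trophoblast and amnion markers were higher and 2 of 6 cardiomyocyte markers were lower, and their part in the result was not tested. The change from day 6 to day 10 differed from WT in 4 members, all toward lower values, where 6.29% of all genes differed in either direction.

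In NKX2-5 shRNA cells at day 2, 6 members were higher (13.0% of all genes tested were) and 2 were lower (13.6% were). NODAL was at 244 and 267 CPM against 144.9 and 144.6 CPM in WT cells (log2 0.79, SE 0.10, adjusted p = 9.4e-05). CER1 was at 3656 and 3411 CPM against 1893 and 1920 CPM (log2 0.86, SE 0.08, adjusted p = 1e-05). LEFTY1 was at 27.4 and 32.5 CPM against 9.45 and 9.87 CPM (log2 1.60, SE 0.15, adjusted p = 1.15e-05). For all 3 genes both knockdown libraries lay above both WT libraries. LEFTY2 (0.97), GDF3 (0.56) and TDGF1 (0.37) also rose, whereas FOXH1 (-0.73, adjusted p = 0.00106) and ACVR2B (-0.42, adjusted p = 0.00365) fell. The LEFTY2 call was lost without WT replicate 1 (0.75, adjusted p = 0.0813) and, with that of GDF3, in a single fit of all groups (adjusted p = 0.0545 and 0.562). In the same libraries 2 of 20 other genes of the route were higher and 3 lower, and of the 11 downstream genes 3 were higher and 2 lower, with CXCR4 highest (1.31) and WNT3 lowest (-0.84).

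ACVR2B was lower in NKX2-5 shRNA cells at every day. It was at 262 and 281 CPM against 357 and 364 CPM in WT at day 0, at 262 and 279 against 347 and 362 CPM at day 2, at 275 and 265 against 344 and 351 CPM at day 6, and at 138 and 107 against 246 and 236 CPM at day 10. The knockdown and WT libraries of a day never overlapped. The log2 differences were -0.43, -0.42, -0.37 and -0.97, with adjusted p of 0.0066, 0.00365, 0.00844 and 0.00774. At day 0 the call was lost without either WT library (adjusted p = 0.0695 and 0.0873), and at day 6 without either NKX2-5 shRNA library (adjusted p = 0.0524 and 0.0976).

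At day 0 CER1 was the other member that fell in NKX2-5 shRNA cells, from 3.42 and 4.87 CPM in WT to 1.98 and 1.04 CPM (log2 -1.51, SE 0.29, adjusted p = 0.0056), where 7.64% of all genes tested were lower. That call was lost without WT replicate 2 (adjusted p = 0.0648). In the same libraries 6 of 11 downstream genes were lower, with SOX17 lowest (-4.13). So were 4 of 6 endoderm markers (1 was higher), 2 of 4 neural markers (1 was higher) and 2 of 9 pluripotency markers. The endoderm markers were at low levels, and their sum was higher, at 3.08 to 4.71 CPM against 1.57 to 3.04 CPM in WT. The part of these markers in the result was not tested. CER1 was then higher than WT at day 2, and the change from day 0 to day 2 differed from WT in 3 members, where 3.99% of all genes differed.

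At day 6, 2 of the 9 members were higher in NKX2-5 shRNA cells, near the share of all genes tested (24.4%). Of the 9 members 4 were lower, where 24.7% of all genes tested were. NODAL was at 7.32 and 10.7 CPM against 2.17 and 4.33 CPM (log2 1.42, SE 0.28, adjusted p = 0.0011, and 2.05 without WT replicate 2). CER1 was at 3.05 and 1.76 CPM against 1.17 and 1.30 CPM (log2 0.92, adjusted p = 0.0414), a call that was lost on leaving out NKX2-5 shRNA replicate 1 (0.49) or either WT library (0.85 and 0.99). TDGF1 was at 14.3 and 14.4 CPM against 34.1 and 35.9 CPM (-1.29, SE 0.13, adjusted p = 4.18e-06). FOXH1 fell by 1.12, and GDF3 by 1.37, which was 2.07 without NKX2-5 shRNA replicate 2 and lost its call in a single fit of all groups (adjusted p = 0.143). In these libraries 6 of 6 cardiomyocyte markers were lower (36.5 to 45.9 CPM in sum) and 6 of 6 endoderm markers were higher, and 13 of 21 other genes of the route were higher and 4 lower. The part of these cells in the result was not tested. The change from day 2 to day 6 differed from WT in 3 members, where 46.0% of all genes differed.

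At day 10, 4 members were lower in NKX2-5 shRNA cells, where 20.6% of all genes tested were. FOXH1 was at 1.10 and 2.27 CPM against 18.9 and 34.5 CPM (log2 -3.98, SE 0.46, adjusted p = 0.000893, and -4.57 without NKX2-5 shRNA replicate 2). TDGF1 was at 3.96 and 4.96 CPM against 28.4 and 33.7 CPM (-2.79, SE 0.25, adjusted p = 0.000366). ACVR2A was at 21.3 and 27.4 CPM against 53.8 and 48.2 CPM (-1.06, adjusted p = 0.00609), and ACVR2B is given above. The knockdown libraries lay below the WT libraries for each of these 4 genes. GDF3 did not pass the filter on low counts: it was at 12.4 CPM in NKX2-5 shRNA replicate 1 and at 0.19 CPM in replicate 2. In these libraries 6 of 6 blood and endothelial markers and 6 of 6 endoderm markers were higher, and 6 of 6 cardiomyocyte markers were lower. Their part in the result was not tested. The change from day 6 to day 10 differed from WT in 5 members, where 25.0% of all genes differed.

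ZNF503 shRNA cells differed from WT before differentiation began, a day for which the fall of ZNF503 is not given here. At day 0, 4 members were lower, where 3.52% of all genes tested were, and none was higher. NODAL was at 42.9 and 37.1 CPM against 102 and 93.0 CPM in WT cells (log2 -1.30, SE 0.17, adjusted p = 0.00148). LEFTY1 was at 18.4 and 12.6 CPM against 68.3 and 55.7 CPM (-2.01, SE 0.25, adjusted p = 0.00104), and LEFTY2 at 5.57 and 3.44 CPM against 20.4 and 16.5 CPM (-2.06, SE 0.26, adjusted p = 0.00144). CER1 was at 0.20 and 0.19 CPM against 3.42 and 4.87 CPM, 21.0-fold lower (-4.39, SE 0.37, adjusted p = 6.09e-05). In each of these genes the knockdown libraries lay below the WT libraries, and the median over the 9 members was -0.56, against 0.01 for all genes tested. The NODAL call was lost without ZNF503 shRNA replicate 2 (-1.18, adjusted p = 0.0572). Of the 11 downstream genes 6 were lower and 0 higher, SOX17 being lowest (-4.39, adjusted p = 0.0175). Of the 9 pluripotency markers 0 passed in either direction by edgeR, and their sum was 6221 to 6351 CPM against 7217 to 7443 CPM in WT. Other markers did pass. Of 6 endoderm markers 3 were lower and 1 higher, at low summed levels of 1.67 to 1.91 CPM against 1.57 to 3.04 CPM in WT. Of 4 neural markers 2 were lower and 2 higher, and of 5 cardiomyocyte markers 2 were lower. In addition 1 each of 2 blood and endothelial and of 4 trophoblast and amnion markers was higher. Their part in the result was not tested.

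From day 0 to day 2, 3 members rose in ZNF503 shRNA cells, where 14.9% of all genes tested rose, and 1 fell, where 16.7% fell. The one that fell was ACVR2B (log2 -0.34, adjusted p = 0.0371), whose call was lost without either ZNF503 shRNA library of day 0 (adjusted p = 0.149 and 0.231) or replicate 1 of day 2 (adjusted p = 0.364). NODAL rose by 2.07 on the log2 scale to 149 and 176 CPM, against 144.9 and 144.6 CPM in WT cells. TDGF1 rose by 0.55. CER1 rose by 11.73 but reached only 613 and 699 CPM, where WT cells had 1893 and 1920 CPM (log2 -1.59, SE 0.08, adjusted p = 5.13e-09). LEFTY1 was at 17.5 and 18.7 CPM against 9.45 and 9.87 CPM in WT (0.85, adjusted p = 0.000725), so that it was lower than WT at day 0 and higher at day 2. LEFTY2 was higher by 0.81 (adjusted p = 0.0147), whereas TDGF1 (-0.35, adjusted p = 0.00145) and FOXH1 (-0.79, adjusted p = 0.000379) were lower. In all 2 members were higher (13.1% of all genes tested were) and 3 were lower (13.8% were). Both LEFTY calls were lost in a single fit of all groups (adjusted p = 0.0708 for LEFTY1 and 0.0891 for LEFTY2), and that of LEFTY2 also without either ZNF503 shRNA library (adjusted p = 0.0518 and 0.0574) or WT replicate 1 (0.59, adjusted p = 0.165). The change from day 0 to day 2 differed from WT in 7 members, where 25.0% of all genes differed. In ZEB2 shRNA cells the same test passed for 1 member, CER1, where 1.83% of all genes differed.

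The downstream genes of ZNF503 shRNA cells at day 2 were mostly low, 9 of 11 being lower than WT with a median of -1.15. CXCR4, a chemokine receptor of mesendoderm, was lowest (-4.24, adjusted p = 2.87e-11), and SOX17 was at 3.28 and 4.18 CPM against 53.6 and 58.0 CPM (-4.01). EOMES was at 272 and 346 CPM against 563 and 606 CPM (-0.97, adjusted p = 1.34e-05). Of 20 other genes of the route 3 were higher and 4 lower, FST being highest (2.83-fold higher) and CFC1, a co-receptor related to TDGF1, lowest (log2 -2.59). Of 9 pluripotency markers 6 were higher and 1 lower, and of 4 endoderm markers tested 3 were lower. The part of these cells in the result was not tested.

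At day 6, NODAL was at 29.1 and 20.5 CPM in ZNF503 shRNA cells against 2.17 and 4.33 CPM in WT, 7.29-fold higher (log2 2.87, SE 0.28, adjusted p = 4.76e-06, and 3.49 without WT replicate 2). It was the only member to rise, where 27.2% of all genes tested were higher, and 3 fell, where 28.5% were lower. GDF3 was at 0.31 and 0.57 CPM against 3.55 and 2.67 CPM (-2.78, SE 0.43, adjusted p = 0.00018). FOXH1 was lower by a log2 difference of -0.76 (adjusted p = 0.00124) and ACVR2A, at 38.0 and 40.4 CPM against 65.4 and 56.7 CPM, by -0.64 (adjusted p = 0.00104). TDGF1, at 33.1 and 34.0 CPM against 34.1 and 35.9 CPM, did not pass (-0.07, SE 0.12, adjusted p = 0.672). LEFTY1 was at 0.71 and 0.16 CPM and LEFTY2 at 0.20 and 0.08 CPM, near the level of a few reads. NODAL was thus higher than WT at day 6 in all 3 lines, which share their WT libraries. The 13 other genes of the route that were higher and the 4 that were lower, of 21, included FST at 482 and 427 CPM (highest, 2.96) and CFC1 (lowest, -5.52). Cardiomyocyte markers were lower in 6 of 6 and endoderm markers higher in 6 of 6, and their part in the result was not tested. The change from day 2 to day 6 differed from WT in 4 members, where 48.2% of all genes differed.

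Before differentiation ZEB2 shRNA cells differed from WT in 1 member. CER1 was at 11.8 and 10.8 CPM against 3.42 and 4.87 CPM, 2.68-fold higher (log2 1.42, SE 0.26, adjusted p = 0.0109), where 2.47% of all genes tested were higher. The libraries did not overlap, but the call was lost on leaving out either ZEB2 shRNA library (adjusted p = 0.0836 and 0.0638) or WT replicate 1 (adjusted p = 0.137). In the same libraries 3 of 11 downstream genes were higher and 0 lower, of which LHX1 was highest (log2 2.71, adjusted p = 0.00215) and MIXL1 had the lowest value of the list (-0.95, adjusted p = 0.243). Of the 6 endoderm markers 2 were higher and 0 lower (7.08 to 7.70 CPM in sum against 1.57 to 3.04 CPM), and of 4 neural markers 1 was higher. Their part in the result was not tested.

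The genes whose course was most like that of each member were found by Pearson's r of mean log2(CPM + 1) over the 15 groups among 17031 genes, as a description, since the groups share cells, days and libraries' depth. CER1 was most like MIXL1 (r = 0.981), TBXT and SAMD3 (both 0.977), of which MIXL1 and TBXT are mesendoderm transcription factors. For NODAL the nearest were TMCO6 (0.932), TMPRSS11E (0.931) and RNF182 (0.929), and for TDGF1 the nearest was IFITM1 (0.978). LEFTY1 was nearest to CDX4 (0.971), whereas LEFTY2 had no gene above 0.889 (HOMER2).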

How the data were processed

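The study sequenced stranded total RNA of differentiating H1 cells, mapped reads to hg19 (GRCh37) with TopHat2 2.0.14 and Bowtie2 2.2.1.0, keeping 1 best hit, and counted reads per RefSeq gene with RSeQC. The authors deposited 1 table of raw counts for 34 libraries, not normalized. Columns of 4 libraries (WT and ZEB2 shRNA, day 10, replicates 1 and 2) were not used: the table has 1077 rows past the last accession in them, and compared with replicate 3 in blocks of 1000 rows they had a median Spearman rho of 0.0079 to 0.0131, where replicate 4 had 0.984 and 0.993. RefSeq accessions were matched to symbols for 40285 of 41627, holding 97.1% of counts. Libraries held 9189943 to 90814577 counts, and a count of 3 was the limit of detection.

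Counts were tested in R 4.3.3 with the edgeR 4.0.16 quasi-likelihood test (TMM factors, filterByExpr, prior count 0.125, no covariate). Libraries of 1 day were fitted together for differences between lines, libraries of 1 line for changes between days, and libraries of 2 days for differences in change. P-values were adjusted by Benjamini-Hochberg over all genes. Levels are CPM on TMM-scaled totals, per kb of the MANE Select transcript in GENCODE (GRCh37) where genes are compared. Whether strand or introns were counted is not given in the sources used here. Alternatives were DESeq2 1.42.0, its size factors in edgeR, the exact test, no filter, the second RefSeq row, 1 fit of all groups, a replicate block, and leaving out each library. The scripts were tested on simulated data. Replicates differed by more than sampling noise in all 15 groups (chi-square per degree of freedom 5.33 to 107).

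The members, gene lists and tests were chosen with earlier results of these data known. The genes named are the 9 members, those of 2 pathway lists with the highest and lowest values or that passed in a comparison, and the targeted genes. Marker genes are given as counts or named as part of a list, and the genes most like each member are named. L1TD1, SOX2 and some pathway genes named beside counts were chosen after their values were seen.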

Additional observations from a re-analysis of the deposited data

Results flagged for a closer look

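The change between consecutive days differed between an shRNA line and WT cells, by the interaction term of the edgeR quasi-likelihood test with Benjamini-Hochberg adjustment, in the member genes given here. Each value is the change in the shRNA line minus the change in WT cells on the log2 scale, and the comparisons of the same days share their WT libraries.

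From day 2 to day 6 the ZEB2 shRNA line differed in LEFTY2 (7.65), NODAL (5.22), LEFTY1 (4.95), CER1 (3.39), GDF3 (2.05) and TDGF1 (0.99). Without WT replicate 2 of day 6 the values were 8.69 for LEFTY2, 5.86 for NODAL and 3.53 for LEFTY1, and without WT replicate 1 of day 6 that of LEFTY1 was 10.21. From day 6 to day 10 the same line differed in the opposite direction in LEFTY2 (-8.50), LEFTY1 (-5.33), NODAL (-3.44) and TDGF1 (-1.29). LEFTY2 passed without any 1 of the 8 libraries, whereas NODAL, LEFTY1 and TDGF1 lost their calls without single libraries of either line, with adjusted p up to 0.217, 0.164 and 0.0654. Without WT replicate 2 of day 6 the values were -4.03 for NODAL and -4.05 for LEFTY1, without WT replicate 1 of day 6 that of LEFTY1 was -10.41, and LEFTY2 moved as far as -9.53, without ZEB2 shRNA replicate 3 of day 10, and nearly as far without WT replicate 2 of day 6. From day 0 to day 2 it differed in CER1 (-1.37).

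In the ZNF503 shRNA line the change from day 0 to day 2 differed in LEFTY2 (2.89), LEFTY1 (2.88), CER1 (2.82), NODAL (1.43), GDF3 (0.78), ACVR2B (-0.38) and FOXH1 (-1.11). The calls of GDF3 and ACVR2B were lost on leaving out single libraries, 5 and 7 of the 8 respectively. From day 2 to day 6 this line differed in NODAL (2.72, and 3.37 without WT replicate 2 of day 6), CER1 (1.59), ACVR2A (-0.74) and GDF3 (-2.98).

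In the NKX2-5 shRNA line the change from day 0 to day 2 differed in CER1 (2.39), LEFTY1 (1.67) and NODAL (1.09). From day 2 to day 6 it differed in TDGF1 (-1.67), GDF3 (-1.90, and -2.61 without NKX2-5 shRNA replicate 2 of day 6) and LEFTY2 (-2.73), whose call was lost without WT replicate 2 of day 6 (-1.67, adjusted p = 0.314). From day 6 to day 10 it differed in GDF3 (7.32), ACVR2B (-0.59), ACVR2A (-0.92), TDGF1 (-1.48) and FOXH1 (-2.83, and -3.44 without NKX2-5 shRNA replicate 2 of day 10). The GDF3 value rested on 261 counts in NKX2-5 shRNA replicate 1 of day 10, where replicate 2 had 4, and was 2.24 without it (adjusted p = 0.219). It also lost its call without any of 5 other libraries, between 6.70 and 11.9. The ACVR2B call was lost without any of 7 of the 8 libraries (adjusted p up to 0.1504) and with DESeq2 size factors (adjusted p = 0.0506), and that of ACVR2A without NKX2-5 shRNA replicate 1 of day 6 (adjusted p = 0.0517) or WT replicate 2 of day 6 (adjusted p = 0.0613).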

How the results depend on the processing

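The 119 member values that passed the test were recomputed 1253 times in all, some alternatives covering 70 or 78 of them. None of these recomputed values reversed its sign, 1167 kept their call and 86 lost it, 76 of these on leaving out 1 library. DESeq2, the exact test, no filter and the second RefSeq row lost 0. In 1 fit of all groups, members called numbered 7 for NKX2-5 shRNA at day 10 (against 4), 5 for ZEB2 shRNA at day 10 (against 0, and 1 by the exact test) and 3 for ZNF503 shRNA at day 2 (against 5). Leaving out each library in turn gave 0 to 2 for NKX2-5 shRNA and 0 to 1 for ZEB2 shRNA at day 0. For the change from day 6 to day 10 it gave 2 to 4 for NKX2-5 shRNA (against 5) and 1 to 4 for ZEB2 shRNA. The causes were not tested.

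Replicate numbers did not pair the libraries: correlations of same-numbered deviations were -0.129 to 0.118. With a replicate block 77 of 78 values kept their call, CER1 in NKX2-5 shRNA cells at day 6 being lost (0.92, adjusted p = 0.0529). Groups of 2 limit precision, and depth limits genes near 3 counts.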
